A study of Mus musculus with 2 samples.

Results

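The genes described here are those that make the sugar tree of N-linked glycoproteins, transfer it to nascent chains and begin to trim it in the endoplasmic reticulum (ER). They were chosen by function, as a list of 42 gene symbols, and a row was found for all 42 among the 16803 genes of the deposited table. The 42 genes fall into 7 roles, from sugar donor supply to trimming of the attached glycan.

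N-glycosylation starts at the cytosolic face of the ER membrane, where glycosyltransferases of the Alg family build a short chain of N-acetylglucosamine (GlcNAc) and mannose on the lipid dolichol phosphate. The chain is flipped into the lumen, extended with mannose and glucose from dolichol-linked donors, and moved as a block onto asparagine residues of proteins by the oligosaccharyltransferase complex. Glucosidases and a reglucosylating sensor then work on the glycan while the protein folds, and many genes of the pathway are known targets of the unfolded protein response, the programme by which cells answer misfolded protein in the ER.

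RNA was sequenced from NE4C cells, a line established from mouse neural stem cells and grown in Eagle MEM on poly-L-lysine, in 1 library of normally cultured cells (control) and 1 library of cells treated with homocysteine thiolactone (HTL). HTL is the reactive cyclic form of homocysteine that can attach to lysine residues. The comparison asks how HTL treatment changes gene expression, in a study of homocysteine and neural tube closure. The dose and duration of HTL for these libraries, and whether the control received a vehicle or a medium change, are not given in the sources used here. For the study's other cultures a low-serum step came first, HTL was then added at several doses, and untreated cells were the control, but this is not tied to the sequenced RNA.

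The control library held 10350700 estimated reads and the HTL library 9102080. With 1 library per group there is no replicate check, so every p-value and every interval below covers counting error between these 2 libraries only and compares the libraries, not the conditions. Of 8 neural stem cell markers, all had reads in both libraries, among them Nes at 25.1 FPKM (fragments per kilobase of transcript, scaled to library size) in control and 24.1 in HTL and Msi1 at 38.7 and 39.5, and the sum over the 8 markers went from 193.14 to 138.14 FPKM, with 1 of the 8, Notch1, called higher and 3 called lower. These were Sox2, from 34.7 to 12.57 FPKM, Vim, from 78.5 to 38.8, and Sox1, from 1.14 to 0.32. Of 12 markers of other cell types, 10 had a row, with a sum of 1918 FPKM in control and 2161 in HTL. Nearly all of that was Pou5f1, a pluripotency factor, at 1870 and 2114 FPKM, whereas Nanog, another pluripotency factor, fell from 23.8 to 14.75 FPKM and the astrocyte marker Gfap had 2 reads in control and 0 in HTL. Of the 9 of these markers that were tested, 0 were called higher and 1 lower, Dcx. By the adjusted p alone 2 were higher, Pou5f1 and Tubb3, and 2 lower, Dcx and Nanog, so that the neuronal markers Dcx and Tubb3 went in opposite directions. Beside both marker lists stand the shares of all genes tested, 2.81% called higher and 7.98% called lower. By the adjusted p alone these shares were 14.5% higher and 24.1% lower. The part of these markers in the results below was not tested.

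A ratio is given here as the log2 of HTL over control reads, each scaled to its library total, with 0.5 read added to each, and its 95% interval is an exact binomial one. A gene was called when its adjusted p in an exact binomial test was at most 0.001 and the ratio was at least 2-fold, the cutoffs of the study's own methods. "Rose" and "fell" are also used for genes that passed the adjusted p alone, which can be under 2-fold, and "called" or "past 2-fold" marks those that passed both cutoffs. All 42 genes had enough reads to be tested, among 13442 genes tested in all.

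Promoter sequence was looked up for the genes because ER stress factors are known to bind short elements near start sites. RefSeq promoter windows of build GRCm38.p6, from 250 bases before to 50 bases after the start, were matched for 35 of the 42 genes. The ER stress response element, CCAAT and CCACG spaced by 9 bases, was found on either strand in 1 of the 35 windows (2.86%), that of Alg12, beside 0.170% of 10615 windows of tested genes. The core TGACGTG of the unfolded protein response element was in 4 windows (11.4%), beside 3.22% of all, and these belonged to Dhdds, Dpm2, Mogs and Uap1. The related element with ATTGG, 1 base and CCACG was in 0 of 35 windows beside 0.0848% of all, and the Atf4 element TGATGNAA in 0 of 35 beside 2.64%. The 5 matches are printed because they are all the matches to these elements that were found. Each is written on the gene's strand with the element in capitals. They lie at chr15:88819500-88819568 on the minus strand for Alg12, chr4:134000875-134000931 minus for Dhdds, chr2:32570766-32570832 plus for Dpm2, chr6:83115432-83115498 plus for Mogs and chr1:170174957-170175003 minus for Uap1.
Alg12: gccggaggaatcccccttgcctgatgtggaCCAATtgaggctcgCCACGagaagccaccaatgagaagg
Dhdds: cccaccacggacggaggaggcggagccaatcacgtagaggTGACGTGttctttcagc
Dpm2: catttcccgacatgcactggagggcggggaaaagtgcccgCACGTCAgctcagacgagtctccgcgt
Mogs: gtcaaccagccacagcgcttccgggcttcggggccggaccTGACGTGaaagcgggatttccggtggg
Uap1: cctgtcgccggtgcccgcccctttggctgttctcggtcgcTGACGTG
In Alg12 the element spans bases -220 to -202 from the start, upstream of the core promoter. In Dhdds it spans -9 to -3, in Mogs -34 to -28 and in Uap1 2 to 8, and in Dpm2 it lies at -52 to -46 and reads on the opposite strand. The 4 genes with the TGACGTG core did not move one way. Uap1 was called higher, Dhdds and Dpm2 fell by less than 2-fold on library totals, and Mogs, at 0.26 on the log2 scale, did not pass the test. A match is a description of the letters, and none of the windows was tested for binding.

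Across the 42 genes, ratios ran from -1.64 for Alg13 to 1.29 for Dpm3, with a median of 0.25, whereas the median over all 13442 genes tested was -0.14. The ratio was above 0 in 30 of the 42 genes (71.4%), beside 41.3% of all genes tested, and 32 lay above the median of all genes. In 18 genes the 95% interval lay wholly above 0, in 9 wholly below, and in 15 it included 0. The 12 genes below 0 all belonged to donor supply and assembly of the precursor.

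Calls were made in both directions. Alg2, Dpm3, Rpn1, Stt3a and Uap1 were called higher, 5 of 42 genes or 11.9%, where 2.81% of all genes tested were. Alg13, Alg6 and Dolk were called lower, 3 genes or 7.14%, close to the 7.98% of all genes tested. By the adjusted p alone, 12 of the 42 were higher (28.6%, beside 14.5% of all genes tested) and 7 were lower (16.7%, beside 24.1%), and 23 passed in neither direction. Of the 12 that were higher, 6 encode OST subunits and 3 act in trimming, and Uap1, Dpm3 and Alg2 were the others. Scaling by trimmed mean of M values (TMM) in place of library totals raised every ratio by 0.13 and gave 16 genes higher and 5 lower by the adjusted p alone, with 20.1% and 18.5% of all genes tested. Mpi, Dad1, Mogs and Man1b1 passed the adjusted p in addition, and Pmm2 and Dhdds no longer did. On a ratio of FPKM plus 1, Uap1 at 0.95, Alg2 at 0.91 and Alg6 at -0.97 were short of 2-fold. When a biological coefficient of variation of 0.2 was assumed in edgeR's exact test, 0 of the 42 genes passed the adjusted p in either direction. Of all genes tested, 0.283% passed it higher and 0.610% lower.

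**Figure D1:**
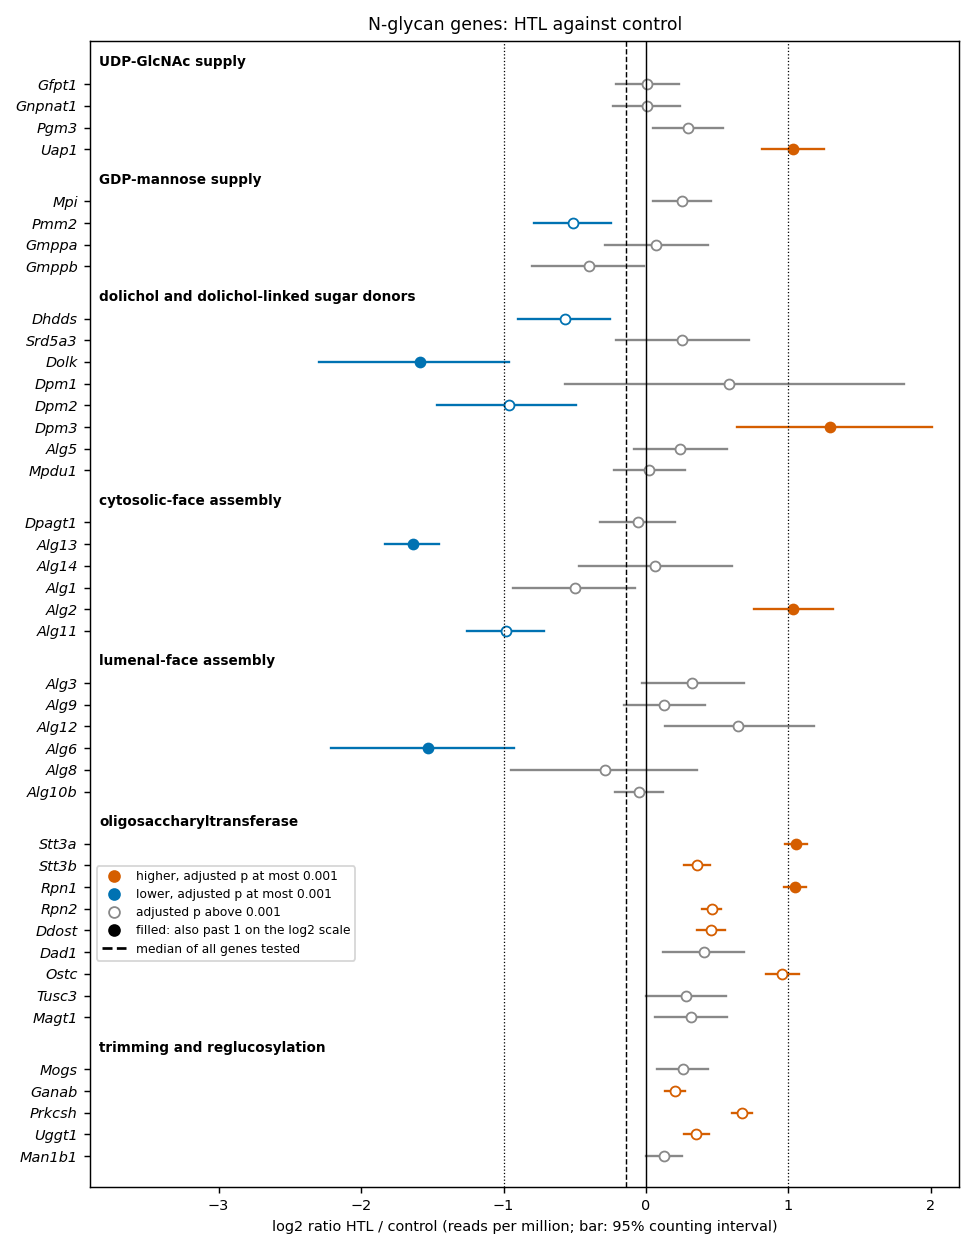
The log2 ratio of HTL over control (horizontal axis) is plotted for each of the 42 genes, grouped by role, with bars for the 95% counting interval and a dashed line at the median of all genes tested (filled points were called). The 9 oligosaccharyltransferase genes and the 5 trimming genes lie above 0, and the assembly groups spread from -1.64 to 1.03.

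The oligosaccharyltransferase (OST) is the complex that moves the finished glycan from dolichol onto the protein. All 9 of its genes on the list had a ratio above 0, with a median of 0.45, and 6 passed the adjusted p alone, 2 of them past 2-fold. Of all genes tested, 41.3% were above 0, 14.5% were higher by the adjusted p alone and 2.81% were called higher. Reads over the 9 genes summed to 12766 in control and 18274 in HTL, and their FPKM to 498.66 and 817.43.

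Stt3a, a catalytic subunit that glycosylates chains as they enter the ER, had 2116 reads (75.5 FPKM) in control and 3862 (156 FPKM) in HTL. The gene lies at chr9:36538860-36575264 on the minus strand of build NCBIM37, which is used for every gene position below. It was called higher at 2.08-fold, with a log2 ratio of 1.05 (0.98 to 1.13) and an adjusted p of 1.31e-166 in the exact test. Rpn1, ribophorin I, a structural subunit beside the translocon, was at almost the same ratio. It lies at chr6:88034467-88055298 on the plus strand. It went from 2099 reads (55.3 FPKM) to 3817 (114 FPKM), 2.07-fold or 1.05 on the log2 scale (0.97 to 1.13), with an adjusted p of 2.76e-163 in the exact test. On library totals no other subunit of the 9 passed 2-fold.

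Ostc, also called DC2, a small subunit known from the complex that holds Stt3a, had 949 reads (86.3 FPKM) in control and 1619 (167 FPKM) in HTL. It rose by 0.96 on the log2 scale (0.84 to 1.07), just short of 2-fold, and was called higher at 1.09 with TMM, 1.09 with median of ratios and 1.05 with upper quartile scaling. Rpn2, ribophorin II, went from 3547 to 4293 reads and rose by 0.46. Ddost, a subunit needed for assembly of the complex, went from 1582 to 1907 reads and rose by 0.45. Both were therefore under the 2-fold cutoff with intervals that lay clear of 0, 0.40 to 0.53 for Rpn2 and 0.36 to 0.55 for Ddost.

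Stt3b, the other catalytic subunit, which acts mainly on sites that Stt3a skips, went from 1822 reads (41.2 FPKM) to 2055 (52.7 FPKM) and rose by 0.36 (0.27 to 0.45). Magt1 and Tusc3, the oxidoreductase subunits that work with Stt3b, had log2 ratios of 0.32 (0.07 to 0.57) and 0.28 (-0.00090 to 0.56) and did not pass the test. Magt1 had 253 reads in control and 277 in HTL, and Tusc3 204 and 218. Dad1, a small subunit named for its role as a defender against cell death, had 194 and 226 reads, with a log2 ratio of 0.40, also short of the test.

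The ratio of Stt3a exceeded that of Stt3b by 0.69 on the log2 scale (95% interval 0.57 to 0.81). In FPKM, Stt3a was 1.83 times Stt3b in control and 2.97 times in HTL. The pair Tusc3 and Magt1 differed by -0.03 in log2 ratio (-0.42 to 0.35), and Tusc3 stood at 2.28 times Magt1 in control and 2.24 times in HTL. The interval for that pair included 0, and differences of either sign within it are not distinguishable at this depth.

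Of 3 further OST subunits outside the 42, Krtcap2, known like Ostc from the Stt3a complex, went from 203 to 283 reads and rose by 0.66 (0.40 to 0.93). Ost4 and Tmem258, small subunits of both complexes, had log2 ratios of 0.15 and 0.21 and did not pass the test. Sorting the subunits by complex was done after their values were seen. Stt3a, Ostc and Krtcap2 thus had the log2 ratios 1.05, 0.96 and 0.66, and Stt3b, Magt1 and Tusc3 0.36, 0.32 and 0.28. After the median of genes of like length was subtracted, Krtcap2 was at 0.53 and Stt3b at 0.56.

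**Figure D2:**
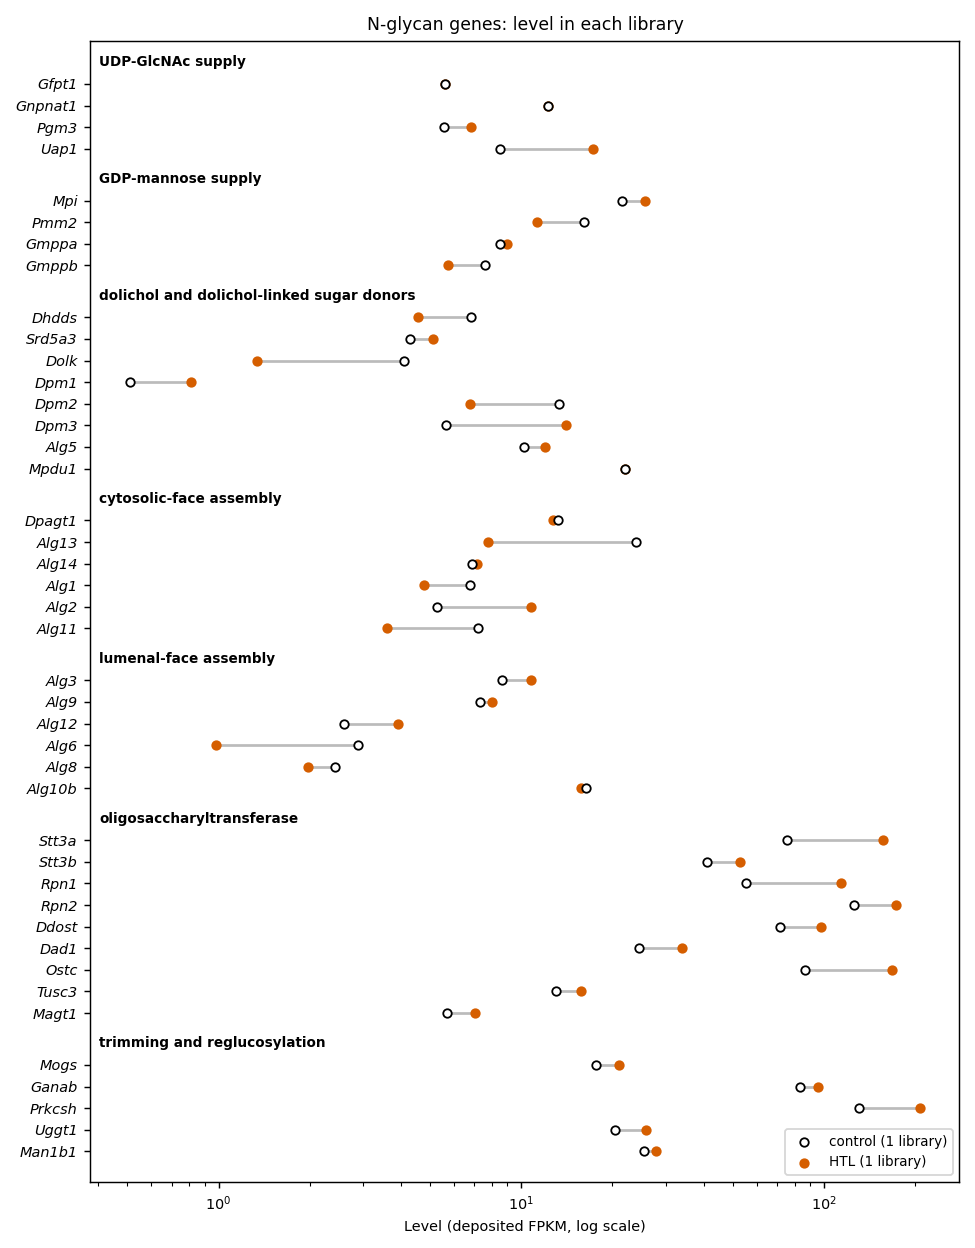
Expression level in FPKM, on a log axis, is plotted for each of the 42 genes in the control and the HTL library, grouped by role. The OST and trimming genes hold the highest levels, up to 173 FPKM for Rpn2 and 207 for Prkcsh in HTL, and Dpm1 the lowest, at 0.51 and 0.81.

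Trimming and reglucosylation follow transfer, and all 5 genes of this role had a ratio above 0, with a median of 0.26. By the adjusted p, 3 of the 5 rose, none by 2-fold. Of all genes tested, 41.3% were above 0 and 14.5% were higher by the adjusted p alone. Prkcsh, the beta subunit of glucosidase II, went from 2798 reads (130 FPKM) in control to 3923 (207 FPKM) in HTL and rose by 0.67 (0.60 to 0.74), 1.59-fold, with an adjusted p of 6.6e-79 in the exact test. Its catalytic partner Ganab moved much less, from 3412 reads (83.4 FPKM) to 3452 (95.6 FPKM), and rose by 0.20 (0.13 to 0.27).

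Uggt1, the sensor that adds glucose back to unfolded glycoproteins, went from 1928 reads (20.3 FPKM) to 2166 (25.9 FPKM) and rose by 0.35 (0.26 to 0.44). Mogs, glucosidase I, which removes the outermost glucose, had 512 and 538 reads, with a log2 ratio of 0.26 (0.08 to 0.43) that did not pass the adjusted p of 0.001. Man1b1, an ER mannosidase that marks glycoproteins for degradation, had 996 and 956 reads, and its log2 ratio of 0.13 (-0.0032 to 0.26) had an interval that included 0.

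Uggt2, the paralogue of Uggt1 and not among the 42, went the other way, from 93 reads in control to 22 in HTL, and fell by 1.87 on the log2 scale, past 2-fold, although on FPKM plus 1 the ratio was -0.78. The ratios of Uggt1 and Uggt2 differed by 2.25 (1.56 to 2.99), and Uggt1 stood at 14.9 times Uggt2 in FPKM in control and 70.0 times in HTL.

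UDP-GlcNAc is the sugar donor for the base of the glycan and is made by 4 genes of the list. Uap1, the enzyme of the last step, which joins GlcNAc phosphate to UDP, was the single gene of the 4 to pass the test. It lies at chr1:172072069-172105088 on the minus strand and had 270 reads (8.5 FPKM) in control and 485 (17.3 FPKM) in HTL. It was called higher at 2.04-fold, with a log2 ratio of 1.03 (0.81 to 1.25) and an adjusted p of 7.43e-21 in the exact test. Of all genes tested, 14.5% were higher by the adjusted p alone and 2.81% were called higher.

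Gfpt1 and Gnpnat1, which act before Uap1, were near level. Gfpt1, the rate-limiting enzyme of the hexosamine pathway, had 365 reads (5.58 FPKM) in control and 323 (5.61 FPKM) in HTL, a log2 ratio of 0.0091 (-0.21 to 0.23). Gnpnat1, which acetylates glucosamine phosphate, had 323 and 285 reads at 12.3 FPKM in both libraries, a log2 ratio of 0.0049 (-0.23 to 0.24). Pgm3, the phosphoacetylglucosamine mutase, had 266 and 287 reads, with a log2 ratio of 0.29 (0.05 to 0.54) that did not pass the test. Gfpt2, a paralogue of Gfpt1 outside the 42, had 240 reads in control and 345 in HTL and rose by 0.71, so that the ratio of Gfpt1 lay below that of Gfpt2 by -0.70 (-1.03 to -0.37).

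GDP-mannose supply had no called gene among its 4, beside 2.81% of all genes tested called higher and 7.98% lower. Its median log2 ratio was -0.16, or -0.04 with TMM scaling. Mpi, which takes fructose phosphate into the mannose pathway, had the highest ratio. It had 390 reads (21.5 FPKM) in control and 408 (25.6 FPKM) in HTL, a log2 ratio of 0.25 (0.05 to 0.45) that did not pass the test. With TMM scaling its adjusted p in the exact test was 0.00057, which passed. With upper quartile scaling it was 0.0020, which did not. Pmm2, the phosphomannomutase whose loss is the commonest inherited glycosylation disorder, fell from 299 reads (16.1 FPKM) to 184 (11.2 FPKM). Its fall of 0.51 on the log2 scale had an interval from -0.79 to -0.25 and an adjusted p of 0.000348 in the exact test, with a fold under 2. With TMM scaling Pmm2 was at -0.38 and its adjusted p in the exact test, 0.0096, did not pass, and it did not pass with median of ratios or upper quartile scaling either.

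Gmppb, the catalytic subunit of GDP-mannose pyrophosphorylase, had 140 reads in control and 93 in HTL, a log2 ratio of -0.40 (-0.80 to -0.02). Gmppa, its regulatory partner, had 134 and 124 reads, with a log2 ratio of 0.07 (-0.29 to 0.44). Neither passed the test, and the difference between them, 0.48, had an interval from -0.06 to 1.02. Pmm1, the paralogue of Pmm2 and not among the 42, had 1350 and 1717 reads and rose by 0.53. The ratios of Pmm1 and Pmm2 therefore differed by 1.05 (0.76 to 1.34), and Pmm1 went from 6.23 to 12.9 times the FPKM of Pmm2.

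**Figure D3:**
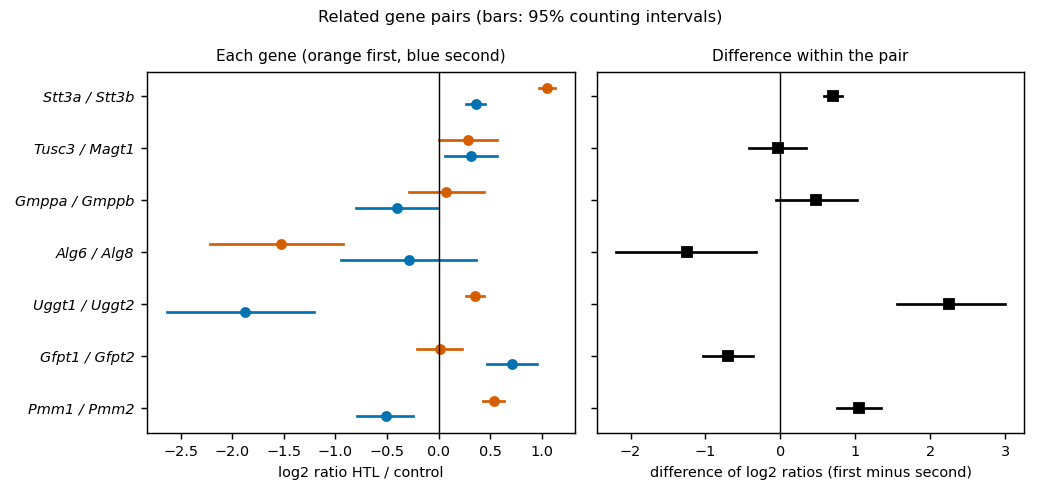
For 7 pairs of related genes, the left panel plots each gene's log2 ratio of HTL over control (orange for the first gene named, blue for the second) and the right panel the difference of the pair's log2 ratios, first minus second, with bars for 95% counting intervals. In 5 of the 7 pairs the interval of the difference excluded 0, and the difference was largest for Uggt1 and Uggt2, at 2.25.

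Dolichol and its linked sugars are made by 8 genes of the list, and calls went both ways among them. Dolk, dolichol kinase, which makes the lipid carrier dolichol phosphate, had 90 reads (4.09 FPKM) in control and 26 (1.34 FPKM) in HTL. It was called lower, by 3.01-fold or -1.59 on the log2 scale (-2.30 to -0.96), with an adjusted p of 2.76e-07 in the exact test. The gene is short, at chr2:30139749-30141874 on the minus strand. Dhdds, which makes the polyprenol chain ahead of it, fell from 220 reads (6.8 FPKM) to 130 (4.56 FPKM), by 0.57 on the log2 scale, with a fold under 2. Like Pmm2 it did not pass under the 3 other scalings, with an adjusted p of 0.011 in the exact test and a ratio of -0.44 under TMM. Srd5a3, the reductase that turns polyprenol into dolichol, had 78 and 82 reads, with a log2 ratio of 0.26 (-0.21 to 0.72) that did not pass the test.

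Dolichol phosphate mannose synthase has 3 subunits, of which 1 was called higher, 1 fell and 1 had too few reads to show a difference. Dpm3, which tethers the catalytic subunit to the membrane, had 28 reads (5.66 FPKM) in control and 61 (14 FPKM) in HTL. It was called higher at 2.45-fold, with a log2 ratio of 1.29, but the interval was wide, from 0.64 to 2.01, and the adjusted p in the exact test was 0.000127. Its call was lost at an assumed coefficient of variation of 0.1, with an adjusted p of 0.0052 in edgeR's exact test. The gene lies at chr3:89063280-89071001 on the plus strand. Dpm2, a regulatory subunit, fell from 118 reads (13.3 FPKM) to 53 (6.79 FPKM), by 0.96 on the log2 scale (-1.47 to -0.49), just under 2-fold.

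Dpm1, the catalytic subunit, had 12 reads in control and 16 in HTL, the fewest of the 42 genes, and its log2 ratio of 0.58 had an interval from -0.57 to 1.81. No difference was detectable at this depth. Exons of Dpm1 overlap Adnp on the same strand and Mocs3 on the opposite strand in the annotation, so that its reads may have been shared among these genes in counting. Alg5, which makes dolichol phosphate glucose, had 154 and 160 reads, with a log2 ratio of 0.24 (-0.09 to 0.57). Mpdu1, a protein needed to use both dolichol donors, was at 22.02 FPKM in control and 22.08 in HTL, a log2 ratio of 0.02 (-0.23 to 0.27).

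Assembly at the cytosolic face had the lowest median of the 7 roles, -0.28, or -0.15 with TMM scaling. Of its 6 genes, 1 was called higher and 1 lower, where 2.81% and 7.98% of all genes tested were. Alg13, the catalytic subunit of the enzyme that adds the second GlcNAc of the chain, showed the largest fall of the 42 on library totals. It had 1031 reads (23.9 FPKM) in control and 291 (7.74 FPKM) in HTL, 3.11-fold lower or -1.64 on the log2 scale (-1.83 to -1.45), with an adjusted p of 3.81e-76 in the exact test. The gene lies on the X chromosome at chrX:140752355-140808993, plus strand. After centring by length Alg13 was at -1.44 and Dolk was lower, at -1.48. Alg14, the membrane partner of Alg13, had 63 reads (6.85 FPKM) in control and 58 (7.15 FPKM) in HTL, a log2 ratio of 0.07 (-0.47 to 0.60).

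Alg1, Alg2 and Alg11 are the mannosyltransferases of the cytosolic face. Alg2 had 168 reads (5.27 FPKM) in control and 302 (10.8 FPKM) in HTL and was called higher at 2.04-fold, 1.03 on the log2 scale (0.75 to 1.31), with an adjusted p of 2.68e-13 in the exact test. It lies at chr4:47477939-47487205 on the minus strand. Alg11 went the other way, from 373 reads (7.19 FPKM) to 166 (3.61 FPKM), and fell by 0.98 (-1.26 to -0.71), just under 2-fold. Alg1 had 124 and 77 reads, with a log2 ratio of -0.50 (-0.93 to -0.08) that did not pass the test. The intervals of Alg2 and Alg11 did not overlap, although the levels of the 3 genes in control were alike, between 5.27 and 7.19 FPKM.

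Dpagt1, the first enzyme of the dolichol-linked pathway and the target of tunicamycin, had 263 reads (13.3 FPKM) in control and 222 (12.7 FPKM) in HTL. Its log2 ratio of -0.06 (-0.32 to 0.20) did not pass the test, and it was 0.07 with TMM scaling.

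Assembly on the lumenal side had a median of 0.04 on library totals, which was 0.17 with TMM scaling and 0.19 after centring by length. Of its 6 genes, 1 was called, in the lower direction, beside 7.98% of all genes tested. Alg6, which adds the first glucose, had 93 reads (2.88 FPKM) in control and 28 (0.98 FPKM) in HTL. It was called lower, by 2.89-fold or -1.53 on the log2 scale (-2.21 to -0.92), with an adjusted p of 4.8e-07 in the exact test. The gene lies at chr4:99382355-99430151 on the plus strand. Alg8, which adds the next glucose and is related to Alg6, had 50 and 36 reads, with a log2 ratio of -0.29 (-0.95 to 0.36). The ratio of Alg6 was below that of Alg8 by -1.25 (-2.19 to -0.33).

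Alg10b, which adds the last glucose, had 634 reads (16.3 FPKM) in control and 539 (15.7 FPKM) in HTL, a log2 ratio of -0.05 (-0.22 to 0.12), and 0.08 with TMM scaling. The lumenal mannosyltransferases Alg3, Alg9 and Alg12 had log2 ratios of 0.33, 0.13 and 0.65, and none passed the test. Alg12, whose promoter window holds the ER stress response element, had 55 reads (2.60 FPKM) in control and 76 (3.91 FPKM) in HTL, with an interval from 0.13 to 1.18. Alg3 had 126 and 139 reads, and Alg9 212 and 204.

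Other pathways that use the same donors or handle the same glycans were counted from 8 lists. Among 13 genes of the lectin cycle, ER mannosidases and deglycosylation, 3 were called higher (23.1%, beside 2.81% of all genes tested) and 1 lower (7.69%, beside 7.98%), with a median of -0.05 that was 0.084 with TMM scaling. Calr, the lectin chaperone that holds monoglucosylated glycoproteins, had 5871 reads in control and 17921 in HTL, a called rise of 1.80 (1.75 to 1.84), and the called fall was Uggt2. Pdia3 and Edem1 were the other genes called higher, at 1.15 and 1.01, and Edem1 lost its call with 5 reads added and on FPKM plus 1, at 0.89. Among 7 other genes of precursor supply, 0 were called higher, and 3 rose by the adjusted p alone with a ratio under 2-fold, Gfpt2, Pmm1 and Nus1. Of all genes tested, 14.5% were higher by the adjusted p alone.

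Golgi maturation, anchor assembly and protein mannosylation had 0 genes called higher, beside 2.81% of all genes tested, and their counts called lower stand beside 7.98% of all. Of 17 Golgi genes that mature N-glycans, 2 were called lower (11.8%), with a median of -0.02 that was 0.11 with TMM scaling. St3gal4, a sialyltransferase, went from 213 reads to 53 and fell by 1.81 (-2.28 to -1.38), and Mgat5, a branching GlcNAc transferase, from 117 to 51, with a log2 ratio of -1.01 that lost its call with TMM scaling. Of 20 genes of glycosylphosphatidylinositol anchor assembly, 2 were called lower (10%), with a median of -0.29 that was 0.0033 after centring by length. Pigw, an inositol acyltransferase, fell from 195 reads to 74, by 1.21, and Pigv, a mannosyltransferase, was at -1.01, or -0.88 with TMM scaling, where it lost its call. The 7 genes of O-mannosylation and C-mannosylation had ratios below 0 throughout, from -1.71 to -0.21, with a median of -0.72 that was -0.34 after centring by length. Of these, 2 were called lower (28.6%), and Pomgnt1, at -1.10, lost its call with TMM scaling, at -0.97, and after centring by length. Pomgnt2, the lowest, went from 128 reads to 34 and fell by 1.71 (-2.32 to -1.17), past 2-fold. At an assumed coefficient of variation of 0.2, Calr, Pdia3, Edem1, Uggt2, St3gal4, Mgat5, Pigw, Pigv, Pomgnt1 and Pomgnt2 all lost their calls, with Calr the nearest to passing at an adjusted p of 0.0019 in edgeR's exact test.

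**Figure D4:**
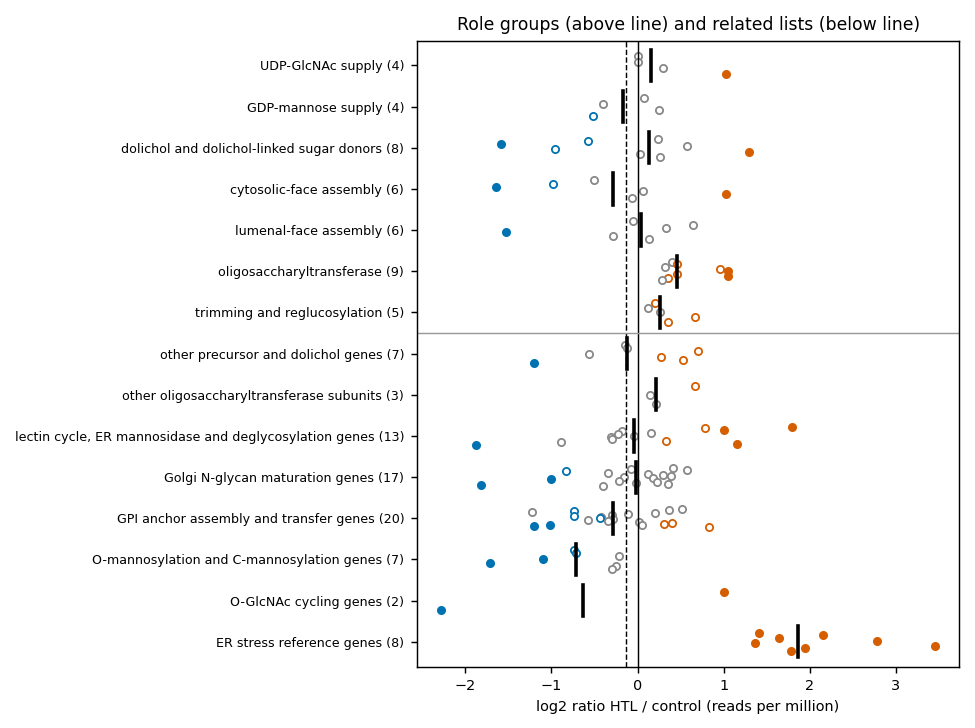
Each point is the log2 ratio of HTL over control for 1 gene, in the 7 roles of the 42 genes and in the other lists, with a bar at each list's median and a dashed line at the median of all genes tested (orange and blue, adjusted p of at most 0.001, higher and lower; filled, also past 2-fold). The medians run from -0.72 for O-mannosylation and C-mannosylation to 1.86 for the 8 ER stress genes.

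The 8 ER stress genes, a reference list chosen with earlier results of these data known, were all called higher, beside 2.81% of all genes tested, with a median of 1.86 and a lowest ratio of 1.37. Xbp1, a transcription factor of the unfolded protein response, had 206 reads in control and 625 in HTL, a log2 ratio of 1.78 (1.56 to 2.02). At an assumed coefficient of variation of 0.2, 3 of the 8 kept their calls, and Xbp1 did not, with an adjusted p of 0.0032 in edgeR's exact test. Every one of the 42 glycosylation genes had a ratio below 1.37, the highest being Dpm3 at 1.29. These are values of the same 2 libraries set side by side, and a link between them was not tested.

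Transcript length moved with the ratio over all genes, with genes sorted into 10 bins of equal number, from a median of 0.14 in the bin of the shortest transcripts to -0.38 in that of the longest, and 17 of the 42 genes were in the 3 shortest bins. After the median of each bin was subtracted, the median of the 42 was 0.30 and that of all genes tested was 0. The 42 thus lay 0.30 above the median of all genes, a smaller distance than the 0.38 on library totals. The 8 called genes kept their calls, and Dpm2 was called lower as well, at -1.10. In RNA from a whole culture, fewer cells that express a gene and less RNA per cell cannot be told apart.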

How the data were processed

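RNA-seq libraries were made and sequenced for the study by a sequencing service (BGI) from total RNA of 1 control and 1 HTL culture of NE4C cells. The deposited table gives, per gene, expected counts (estimated reads, which the authors obtained with RSEM), FPKM computed by the authors, and a transcript length in bases. Genome build mm9 is named in the submitters' processing notes. The aligner, the annotation and whether counting used strand are not given in the sources used here. Columns of log2 ratio, p-value, FDR and direction in the table hold the authors' own comparison and were not used.

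Expected counts were rounded to whole reads (21.8% of control and 20.2% of HTL values were fractional). Genes with at least 10 reads over both libraries were tested, 13442 of 16803, and 3361 were left out. Reads were scaled to the column totals, 10350700 and 9102080. Each gene was compared by an exact two-sided binomial test of its reads given the library totals, adjusted over all genes tested by Benjamini-Hochberg, with exact Clopper-Pearson 95% intervals (scipy 1.17.1). The quasi-likelihood test and DESeq2 could not be fitted with 1 library per group. Intervals cover counting error only, and reads are not independent molecules, since no molecular identifiers are mentioned. The script was tested on simulated data. The alternatives were TMM and upper quartile factors (edgeR 4.0.16), median of ratios factors (DESeq2 1.42.0), other minimums of reads, 5 reads added, FPKM plus 1, centring by length, a 1.5-fold cutoff and an exact test in edgeR with the biological spread assumed.

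The 42 genes and the other lists were chosen with earlier results of these data known. Each of the 42 was named, with full values for called genes and for the highest and lowest of each role, and from every other list the largest called rise and fall, except 1 gene that is not reported here. O-GlcNAcase is listed under its older symbol Mgea5. Gene positions came from the NCBIM37 annotation, in which exons of 8 of the 42 genes overlap another gene, none of them called, and promoter windows from RefSeq on GRCm38.p6.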

Additional observations from a re-analysis of the deposited data

How the results depend on the processing

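No paired analysis was possible because each group has 1 library, and none could be left out either. The median log2 ratio of the 42 genes was 0.37 with TMM and 0.38 with median of ratios scaling, beside 0.25 on library totals. Its distance above the median of all genes tested was 0.38 under each of these. On FPKM plus 1, 3 genes were called higher in place of 5 (1.79% of all genes tested), and at a 1.5-fold cutoff 5 were called lower in place of 3, with Alg11 and Dpm2 added, and 7 higher in place of 5, with Ostc and Prkcsh added (16.2% and 7.37% of all genes tested). With edgeR's exact test at an assumed coefficient of variation of 0.1, 5 genes were higher and 4 lower by the adjusted p alone (2.83% and 7.26% of all genes tested), and at 0.2 and at 0.4 there were 0 in either direction under both rules. Those counts by the adjusted p alone were chosen after seeing the data. At an unadjusted p under 0.05 the same test gave 17 genes at 0.1, 11 at 0.2 and 0 at 0.4. The share over all genes tested was not computed at that cutoff, so nothing is concluded from these counts. Ratios that changed sign all lay near 0. Dpagt1 was at 0.071 with TMM, 0.077 with median of ratios and 0.034 with upper quartile scaling. Alg10b was at 0.081, 0.088 and 0.045 with these and 0.12 after centring by length, and Alg14 at -0.072 after that centring. Over the 42 genes and their alternatives, 465 ratios kept their direction and side of the threshold, 20 of 8 genes lost the call, 8 of 4 genes gained one and 8 of 3 genes changed sign. Under the assumed coefficients of variation only the p-value changed, so no sign could change there and genes without a call could gain none. Losses by the adjusted p alone, as for Pmm2 and Dhdds, are also among the 465. The 465 is therefore not a measure of stability. Depth limits the genes with few reads, among them Dpm1, Alg8 and Dpm3.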

Other observations

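O-linked GlcNAc on nuclear and cytosolic proteins uses the same UDP-GlcNAc as the N-glycan precursor and is cycled by a pair of enzymes, which went in opposite directions. Ogt, the transferase that adds the sugar, had 1914 reads (34.2 FPKM) in control and 347 (6.95 FPKM) in HTL. It was called lower, by 4.85-fold or -2.28 on the log2 scale (95% counting interval -2.45 to -2.11), with an adjusted p of 8.27e-218 in the exact binomial test. Mgea5, the hydrolase that removes the sugar, had 1616 reads (32.2 FPKM) in control and 2857 (64.7 FPKM) in HTL. It was called higher, at 2.01-fold or 1.01 on the log2 scale (0.92 to 1.10), with an adjusted p of 1.2e-114 in the exact binomial test. Mgea5 lost its call on FPKM plus 1, at 0.98, and at an assumed coefficient of variation of 0.2, with an adjusted p of 0.16 in edgeR's exact test, whereas Ogt kept its call under both and lost it at 0.4, with an adjusted p of 0.95 in that exact test. In control the levels per length of the 2 genes were alike, and in HTL they were not. These are single libraries, and no explanation was tested.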
